A study of Mus musculus musculus x Mus musculus castaneus with 7 samples.

Results

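The transcripts of the mouse mitochondrial genome were followed through reprogramming of fibroblasts to pluripotent cells. They were chosen as every gene of the deposited expression table whose symbol begins with mt-, which gave 33 of 24393 genes: 13 messenger RNAs (mRNAs), 2 ribosomal RNAs (rRNAs) and 18 transfer RNAs (tRNAs). The GENCODE M21 annotation of GRCm38 lists 37 genes on the mitochondrial chromosome, 22 of them tRNAs, and the other 4 tRNAs were not analysed here. Choosing by symbol used no measured value, though earlier results of these data were known when the choice was made.

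The cells were female and from a mouse cross of musculus and castaneus, and each of the 7 groups gave 1 RNA library. The Day 2, Day 8, Day 10, Day 13 and Day 15 libraries came from embryonic fibroblasts carrying lentiviral, doxycycline-inducible Oct4, Sox2, Klf4 and cMyc together with the M2rtTA activator. These cells also carried an X-linked GFP reporter and were sorted by which X chromosome was silent. They are described as then kept in 2 µg/ml doxycycline with ascorbic acid and LIF for the stated number of days. As given below, the Day 2 library is not known to come from induced cells. The cells of Days 8, 10, 13 and 15 were sorted for SSEA1, a cell surface sugar antigen that marks pluripotency in the mouse, while the Day 2 label names no such sort. The induced pluripotent stem cells (iPSCs) were derived from picked colonies after doxycycline and ascorbic acid were withdrawn. They and the embryonic stem cells (ESCs) were sorted for SSEA1 and GFP. The labels do not tie the ESCs to the fibroblasts, so cell origin and cell type cannot be told apart in comparisons with the ESCs. The labels do not say which of the crossed strains gave the mitochondrial genome. Since a group has 1 library, replicate error is unknown, and each difference is between a pair of libraries, with no test and no p-value.

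As background, mitochondria keep a small circular genome, present in many copies per cell, that encodes core subunits of the respiratory chain and of the ATP synthase. Both of its strands are transcribed by the RNA polymerase Polrmt, with the factors Tfam, Tfb2m and Tefm, into long precursors. The tRNAs lie between the other genes, and their excision releases most of the mRNAs and rRNAs. All other respiratory subunits, and all proteins that copy, transcribe and process this genome, are encoded in the nucleus. Pluripotent stem cells are known for a greater use of glycolysis than fibroblasts make.

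Genes in a long run of the mitochondrial genome have near-identical annotated copies in the nuclear genome, which limits what the gene counts can show. The run spans chrM:6390-11042 (GRCm38), and its copies are 7 pseudogenes that lie side by side on the minus strand of chr1:24611535-24616197. The copies Gm28661 of mt-Co2, Gm10925 of mt-Atp6, Gm28437 of mt-Co3, Gm10222 of mt-Nd4l and Gm28439 of mt-Nd4 are 100% identical to the mitochondrial gene over 681, 678, 783, 294 and 876 bases. Of mt-Atp8, 43 bases stand in Gm10925 and the other 161 match no annotated copy at this identity. Gm29216 matches the last 483 bases of mt-Co1 at 99.8%, and Gm28438 matches 345 bases of mt-Nd3 at 99.7%. Each of these last pairs differs at 1 base, A1066T in mt-Co1 and T3C in mt-Nd3, with the mitochondrial base first and positions counted from 1 at the 5′ end of the gene. The opening bases of mt-Nd3 and of its nuclear copy are shown because they hold the only difference between them, in capitals.
mt-Nd3: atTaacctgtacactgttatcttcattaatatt
Gm28438: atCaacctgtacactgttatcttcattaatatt

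The copied run begins inside mt-Co1 and ends inside mt-Nd4. Both borders are shown, from GENCODE M21 transcripts, with the bases that align with the nuclear copy in capitals, identical to it except at A1066T: bases 1033 to 1092 of mt-Co1 and bases 847 to 906 of mt-Nd4.
mt-Co1: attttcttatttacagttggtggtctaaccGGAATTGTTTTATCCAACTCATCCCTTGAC
mt-Nd4: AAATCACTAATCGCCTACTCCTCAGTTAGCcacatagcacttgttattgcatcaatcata

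The 6 mRNAs that lie wholly inside the copied run, mt-Co2, mt-Atp8, mt-Atp6, mt-Co3, mt-Nd3 and mt-Nd4l, had almost no reads in any library. Together they held 60, 97, 86, 64 and 239 reads on Days 2, 8, 10, 13 and 15, 28 in iPSCs and 551 in ESCs. The other 7 mRNAs held 342185, 1091521, 604548, 364040, 1869786, 245202 and 5300885 reads in the same order. The 6 genes therefore made up between 0.00889% (Day 8) and 0.0176% (Day 13) of mitochondrial mRNA reads.

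The 7 nuclear copies were not empty, and 1 of them took most of their reads. Gm28438 held 779, 1317, 1314, 446 and 2141 reads on Days 2, 8, 10, 13 and 15, 295 in iPSCs and 2710 in ESCs, against 0 to 16 reads of its mitochondrial counterpart mt-Nd3. This was 71.6% (ESCs) to 89.7% (Day 10) of the reads of all 7 copies. The low counts of the 6 inside genes follow the borders of the copy, and the sources used here do not give how reads that match both places were counted. Its part in these values was not tested. Their levels are uncertain, and the statements on mRNAs below rest on mt-Nd1, mt-Nd2, mt-Nd4, mt-Nd5, mt-Nd6, mt-Cytb and mt-Co1. Of these, mt-Nd4 lies in the copy for 63.6% of its length and mt-Co1 for 31.3%. Less close copies, at 95.2% to 97.6% identity, are annotated for mt-Co1, mt-Co2, mt-Nd2 and mt-Nd5 on other chromosomes.

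**Figure D1:**
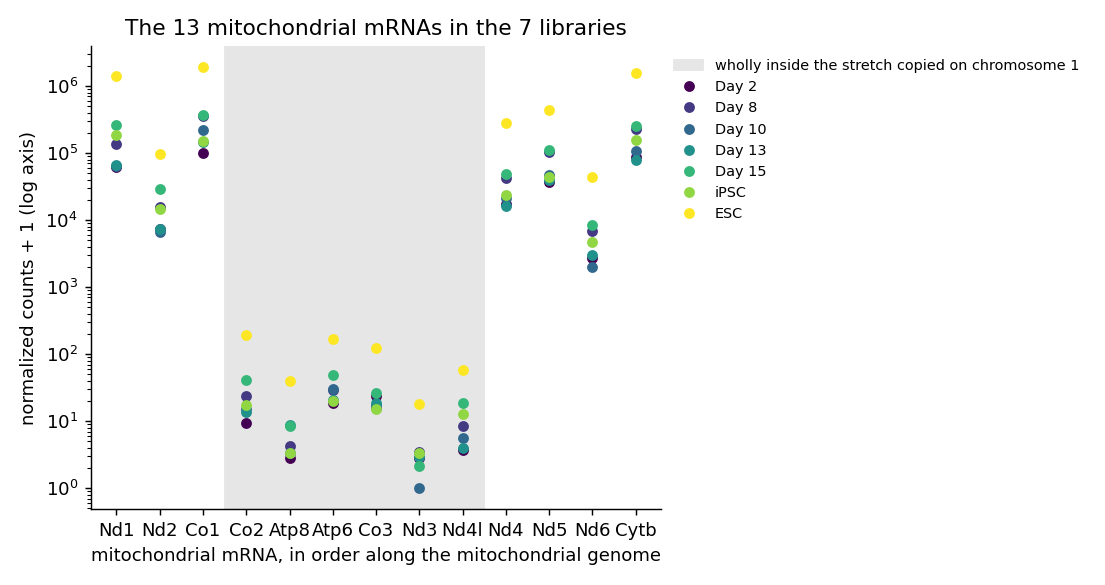
Normalized counts plus 1 of the 13 mitochondrial mRNAs (vertical axis, log scale) in the order of their genes along the genome (horizontal axis), with 1 point per library and the 6 genes wholly inside the copied run shaded. Those 6 genes sit at 0 to 190 normalized counts in the 7 libraries, and the other 7 at 1993 or more.

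Reads assigned to genes numbered between 15370903 (iPSCs) and 57021069 (Day 15). Genes with any read numbered 14400 at Day 8, the fewest, and between 16336 (Day 2) and 21326 (Day 15) in the other libraries. The part of this in the Day 8 values was not tested. The summed normalized counts of 10 pluripotent cell markers were 444 at Day 2, with 8 of the 10 at 0 (among them Pou5f1 and Sox2, which encode vector factors), and 31437 to 378093 in the other 6 libraries. Myc, which encodes another vector factor, had 8935 normalized counts at Day 2, the highest of the 7 libraries. With Pou5f1 and Sox2 at 0, the library labelled Day 2 is not known to come from induced cells. The comparisons of iPSCs and ESCs with it are therefore also given with Day 10 in its place. The fibroblast markers summed to 916253 at Day 2 and 1558 (iPSCs, 5 of 10 at 0) to 86249 elsewhere. The macrophage markers summed to 44438 at Day 8, 37659 at Day 13 and 619 to 4723 in the other 5, with 7 of 10 at 0 at Day 2. The part of these cell types in the mitochondrial levels was not tested. In bulk RNA, fewer cells of a type and less RNA per cell cannot be told apart, and neither can more mitochondrial genomes and more RNA per genome. A normalized count here is a number of reads divided by the size factor of its library. Counting intervals are 95% Clopper-Pearson intervals that cover counting error only, since the reads carry no molecular identifiers.

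Mitochondrial mRNAs took a larger share of reads in the ESC library than in the other 6. Their share was 0.691%, 2.63%, 1.41%, 1.05% and 3.28% of all reads on Days 2, 8, 10, 13 and 15, 1.60% in iPSCs and 14.1% in ESCs. The share of the mitochondrial rRNAs was 1.03%, 2.69%, 1.14%, 1.16%, 2.32%, 1.19% and 6.87% in the same order. Both classes were highest in ESCs, followed by Days 8 and 15, and the Day 2, Day 10, Day 13 and iPSC libraries were lower. The tRNAs were a trace, from 0.00166% at Day 10 to 0.0129% in ESCs. Nuclear rRNA ran from 4.32% of reads in ESCs to 14.9% at Day 2. With those genes left out of the total, the mitochondrial genome held 21.9% of reads in ESCs and 2.03% at Day 2.

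**Figure D2:**
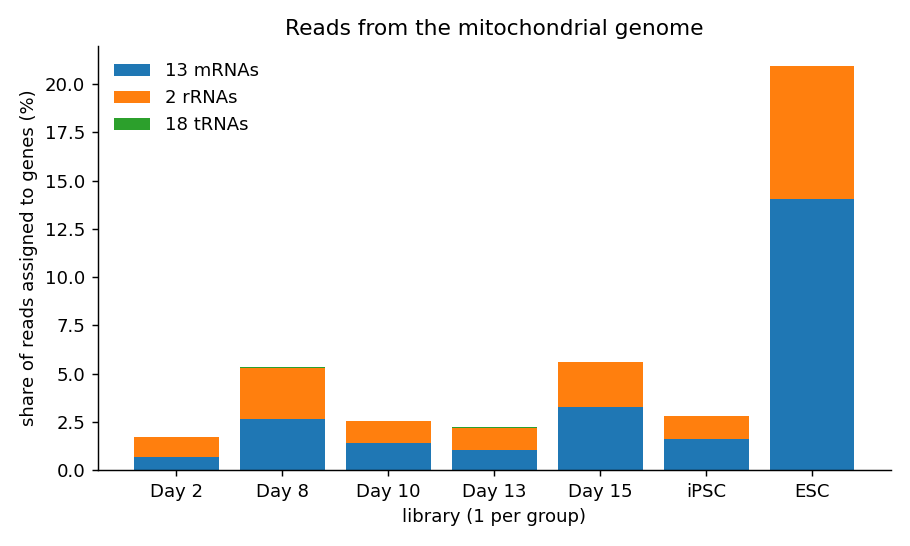
Share of all reads assigned to genes (percent, vertical axis) from the mitochondrial mRNAs, rRNAs and tRNAs in each of the 7 libraries (horizontal axis). The mRNAs reach 14.1% in the ESC library and lie between 0.691% and 3.28% in the other 6.

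The balance between the classes differed between the libraries. For each mRNA read there were 1.49, 1.02, 0.808, 1.11 and 0.708 rRNA reads on Days 2, 8, 10, 13 and 15, 0.748 in iPSCs and 0.488 in ESCs. The Day 2 library had the most rRNA reads per mRNA read, and ESCs the fewest. The nuclear rRNA share had the same extremes, 14.9% at Day 2 and 4.32% in ESCs, and its part in this balance was not tested. ESCs were above iPSCs by 9.97-fold (9.93 to 10.0) in the summed normalized counts of the mRNAs and by 6.51-fold (6.48 to 6.54) in those of the rRNAs. The intervals do not overlap, but they hold no error between replicates.

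Complex I, the NADH dehydrogenase at the entry of the chain, takes 7 of its subunits from the mitochondrial genome, and 5 of them could be followed. The mRNA of mt-Nd1 (chrM:2751-3707), a membrane subunit, had 62101, 134349, 64114, 66505 and 261946 normalized counts on Days 2, 8, 10, 13 and 15, 183223 in iPSCs and 1395510 in ESCs. It was highest in ESCs and next at Day 15, and the Day 2, Day 10 and Day 13 libraries lay close together. ESCs were above iPSCs by 7.62-fold (7.56 to 7.67). Its neighbour mt-Nd2 (chrM:3914-4951), another membrane subunit, had 7376, 15919, 6558, 7454, 28875, 14697 and 97029 normalized counts in the same order of libraries. Its course resembled that of mt-Nd1, with ESCs above iPSCs by 6.60-fold (6.44 to 6.77).

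The remaining complex I subunits with reads lie further along the genome. For mt-Nd4 (chrM:10167-11544), a proton-pumping subunit, the normalized counts were 17132, 41734, 21388, 16169 and 49329 on Days 2, 8, 10, 13 and 15, 23691 in iPSCs and 280286 in ESCs. The long mRNA of mt-Nd5 (chrM:11742-13565), also a proton-pumping subunit, had 36568, 104046, 47673, 40127, 110178, 44123 and 441271 in the same order. In both, Days 8 and 15 stood close to each other, and the iPSC library lay nearer to Days 2, 10 and 13 than to Day 15. The mRNA of mt-Nd6 (chrM:13552-14070) is the only one encoded on the minus strand. It had 2703, 6945, 1993, 2994, 8392, 4784 and 44631 normalized counts, lowest at Day 10 and highest in ESCs. The library kit does not mark strand, so reads of mt-Nd6 and of RNA copied from the opposite strand cannot be told apart. Its last 14 bases also overlap those of mt-Nd5.

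Complex III passes electrons to cytochrome c, and its only mitochondrial subunit is cytochrome b. The mRNA of mt-Cytb (chrM:14145-15288) had 87869, 230096, 108526, 78162 and 255928 normalized counts on Days 2, 8, 10, 13 and 15, 154296 in iPSCs and 1546510 in ESCs. The ESC library was above the iPSC library by 10.0-fold (9.95 to 10.1), and Day 13 was the lowest.

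Complex IV, cytochrome c oxidase, has its catalytic subunit encoded by mt-Co1 (chrM:5328-6872). It had 99096, 357626, 219255, 144153 and 370804 normalized counts on Days 2, 8, 10, 13 and 15, 149659 in iPSCs and 1921600 in ESCs. Unlike mt-Nd1, it was about as high at Day 8 as at Day 15 and lower in iPSCs than at Day 10. Its ESC level was 12.8-fold that of iPSCs (12.7 to 12.9), above the ratio of each of the other 6 mRNAs. The other complex IV subunits, mt-Co2 with 7 to 176 reads and mt-Co3 with 6 to 114, lie in the copied run. So do both ATP synthase subunits, mt-Atp6 with 8 to 157 reads and mt-Atp8 with 1 to 36, and mt-Nd3 and mt-Nd4l of complex I with at most 16 and 52. Each of the 6 was highest in ESCs, but with few reads.

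**Figure D3:**
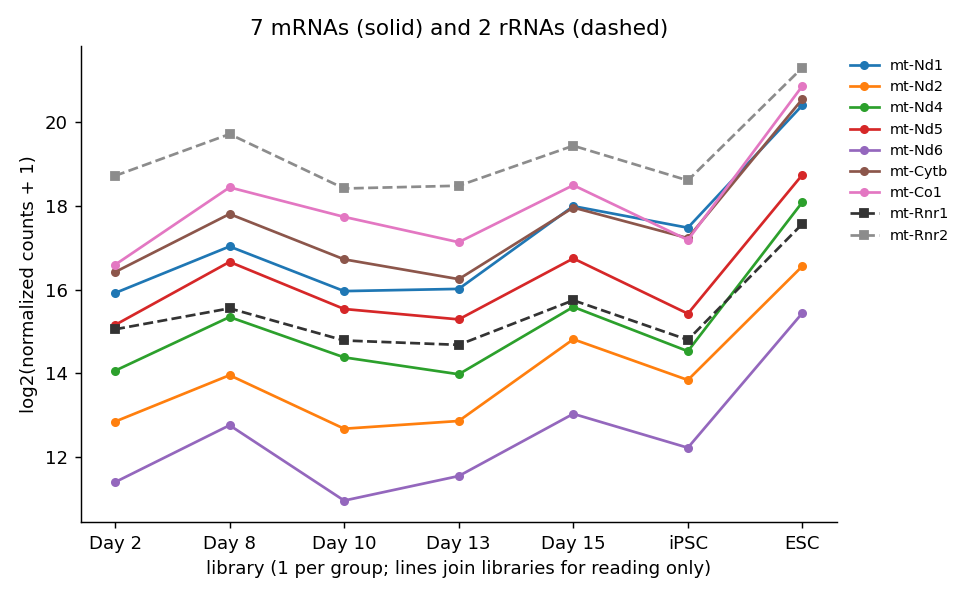
The log2 of normalized counts plus 1 (vertical axis) of the 7 followed mitochondrial mRNAs (solid) and the 2 rRNAs (dashed) in the 7 libraries (horizontal axis). Each line is 1 gene with 1 library per point. All 9 are highest in ESCs, and each mRNA stands higher at Days 8 and 15 than at Days 2, 10 and 13.

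Both rRNAs of the mitochondrial ribosome lie at the start of the main precursor. The small rRNA mt-Rnr1 (chrM:70-1024) had 34053, 48171, 28296, 26317 and 55076 normalized counts on Days 2, 8, 10, 13 and 15, 28604 in iPSCs and 195437 in ESCs. The large rRNA mt-Rnr2 (chrM:1094-2675) had 433108, 864511, 351088, 367435, 713114, 401196 and 2602190 in the same order. It ranked between 1 (ESCs) and 4 (Day 2) among all genes by reads. Leaving out ESCs, mt-Rnr1 spanned 1.07 on the log2 scale and mt-Rnr2 1.30, against 1.59 (mt-Nd5) to 2.14 (mt-Nd2) for the mRNAs. The rRNAs thus varied less than the 7 mRNAs among these 6 libraries. The ratio of mt-Rnr2 to mt-Rnr1 reads was 17.9 at Day 8 and 12.4 to 14.0 elsewhere.

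Per base of gene length, the mRNAs held a partly fixed order. In RPKM (reads per kilobase of gene and per 1000000 reads), mt-Co1, mt-Cytb and mt-Nd1 were the top 3 in all 7 libraries, followed by mt-Nd5, mt-Nd4, mt-Nd2 and mt-Nd6. In ESCs the levels were 35790 RPKM for mt-Nd1, 33179 for mt-Cytb, 30526 for mt-Co1, 5938 for mt-Nd5, 4992 for mt-Nd4, 2294 for mt-Nd2 and 2111 for mt-Nd6. The first place changed: mt-Cytb led at Day 2, mt-Co1 at Days 8, 10 and 13, and mt-Nd1 in the Day 15, iPSC and ESC libraries. The highest was 14.8 (Day 2) to 37.0 (Day 10) times the lowest. With all reads of a gene divided by only its bases outside the nuclear copy, mt-Nd4 reached 13704 RPKM in ESCs and mt-Co1 44410. This assumes that no counted read fell in the copied bases, which was not tested. The place of these genes thus depends on how the copied bases are treated. Under that assumption mt-Nd4 stood above mt-Nd5 in all 7 libraries, and mt-Co1 was first in 6 of the 7. The exception was the iPSC library, with 5316 RPKM for mt-Nd1 and 3913 for mt-Co1.

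The make-up of the mRNA reads moved between mt-Co1 and mt-Nd1. The share of mt-Co1 in mitochondrial mRNA reads was 31.7%, 40.1%, 46.7%, 40.5% and 34.2% on Days 2, 8, 10, 13 and 15, 26.0% in iPSCs and 33.6% in ESCs. The share of mt-Nd1 was 19.8%, 15.1%, 13.7%, 18.7%, 24.1%, 31.9% and 24.4% in the same order. The shares ran opposite ways: mt-Co1 was highest at Day 10 where mt-Nd1 was lowest, and mt-Nd1 highest in iPSCs where mt-Co1 was lowest. Shares of 1 total are not independent, so the read ratio of the pair is also given. It was 0.292 mt-Nd1 reads per mt-Co1 read (0.290 to 0.295) at Day 10 and 1.22 (1.21 to 1.24) in iPSCs, with 0.627 at Day 2 and 0.726 in ESCs.

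The shares of the other mRNAs spanned fewer percentage points. For mt-Cytb the range was 22.0% (Day 13) to 28.1% (Day 2), for mt-Nd4 4.12% to 5.48% and for mt-Nd2 1.40% to 2.66%. The share of mt-Nd5 was 10.1% to 11.7% in the 5 intermediates, 7.68% in iPSCs and 7.70% in ESCs, so both pluripotent libraries were below all intermediates. mt-Nd6 took 0.424% at Day 10 and 0.773% to 0.864% elsewhere.

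**Figure D4:**
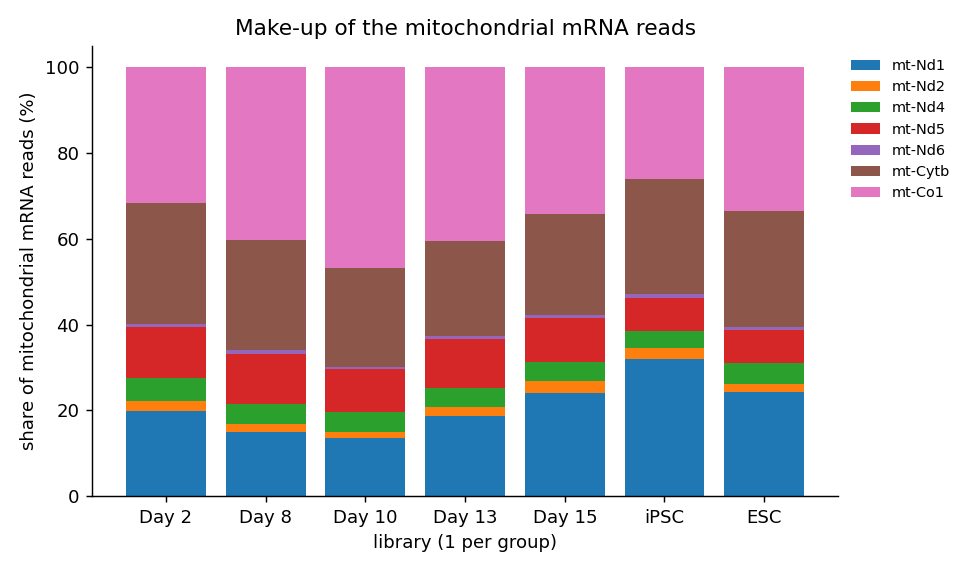
Share of each mRNA in all mitochondrial mRNA reads (percent, vertical axis) in the 7 libraries (horizontal axis). The share of mt-Co1 runs from 26.0% (iPSCs) to 46.7% (Day 10) and that of mt-Nd1 from 13.7% (Day 10) to 31.9% (iPSCs).

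Reads at mt-Nd1 also grew against those of mt-Rnr2, which precedes it in the same precursor with 1 tRNA between them. For each mt-Nd1 read there were 6.97, 6.43, 5.48, 5.52 and 2.72 mt-Rnr2 reads on Days 2, 8, 10, 13 and 15, 2.19 in iPSCs and 1.86 in ESCs. By this ratio the libraries fell into a group at 5.48 or more, Days 2 to 13, and a group at 2.72 or less. The second group was Day 15 and both pluripotent cell types, where the mt-Nd1 share of mRNA reads was also largest. All rRNA reads per mRNA read showed no such gap, at 0.808 at Day 10 and 0.748 in iPSCs. The mt-Rnr2 to mt-Nd1 read ratio lies within each library, so the size factors do not enter it. The nuclear rRNA share also differed between the libraries, and its part in this ratio was not tested.

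The tRNAs carry the amino acids for translation of the mitochondrial mRNAs, and their genes are 59 to 75 bases long. Gene counts do not separate mature tRNAs from longer precursors that span the same bases. Total tRNA reads were 852, 1514, 712, 1409 and 3113 on Days 2, 8, 10, 13 and 15, 341 in iPSCs and 4873 in ESCs. Per 1000000 mitochondrial reads this was 998, 685, 651, 1833, 974, 795 and 617. The tRNAs thus stood highest against the other mitochondrial RNAs at Day 13 and lowest in ESCs, where the mRNAs and rRNAs were highest.

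These 6 tRNA genes are shown, as GENCODE M21 transcripts of GRCm38, because their courses differ, and capitals mark the anticodon. They carry leucine (mt-Tl1), methionine (mt-Tm), glutamine (mt-Tq), cysteine (mt-Tc), threonine (mt-Tt) and proline (mt-Tp).
mt-Tl1: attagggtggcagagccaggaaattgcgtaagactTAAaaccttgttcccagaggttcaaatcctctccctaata
mt-Tm: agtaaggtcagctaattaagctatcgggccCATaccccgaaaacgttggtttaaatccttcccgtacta
mt-Tq: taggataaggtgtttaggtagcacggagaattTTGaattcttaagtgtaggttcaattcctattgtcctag
mt-Tc: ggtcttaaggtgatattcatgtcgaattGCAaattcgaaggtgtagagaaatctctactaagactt
mt-Tt: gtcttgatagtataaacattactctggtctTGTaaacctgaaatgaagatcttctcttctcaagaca
mt-Tp: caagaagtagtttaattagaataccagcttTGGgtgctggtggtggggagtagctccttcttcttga

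Of these, mt-Tl1, which precedes mt-Nd1, and mt-Tm, which precedes mt-Nd2, had their highest values in ESCs and at Day 15, as the mRNA of mt-Nd1 did. Reads of mt-Tl1 (chrM:2676-2750) numbered 122, 465, 253, 290 and 1109 on Days 2, 8, 10, 13 and 15, 107 in iPSCs and 1670 in ESCs. Those of mt-Tm (chrM:3845-3913) numbered 23, 178, 41, 102, 523, 70 and 926. In normalized counts ESCs were above Day 2 by 16.2-fold (13.5 to 19.6) for mt-Tl1 and by 47.6-fold (31.5 to 75.4) for mt-Tm, while mt-Nd2 beside it stood 13.2-fold above. Against Day 10 the same ratios were 9.18 (8.04 to 10.5), 31.4 (23.0 to 44.1) and 14.8.

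The other 4 took other courses. Reads of mt-Tq (chrM:3772-3842) numbered 147, 128, 51, 411, 365, 38 and 690 in the same order, and its Day 13 level in normalized counts was 10.1-fold that of Day 10 (7.56 to 13.8). Reads of mt-Tt (chrM:15289-15355) numbered 48, 10, 42, 108, 44, 4 and 56, and those of mt-Tp (chrM:15356-15422) 79, 100, 89, 190, 126, 8 and 141. These neighbours were the only members of the 33 highest at Day 13 in normalized counts, at 105 for mt-Tt and 186 for mt-Tp, against 60.5 and 152 in ESCs. Reads of mt-Tc (chrM:5192-5257) numbered 212, 202, 80, 134, 290, 22 and 383, and it was the tRNA with the most reads at Day 2.

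The balance of tRNAs between the strands differed between the libraries. The 8 encoded on the minus strand held 680, 326, 306, 1103 and 356 reads per 1000000 mitochondrial reads on Days 2, 8, 10, 13 and 15, 261 in iPSCs and 222 in ESCs. The 10 on the plus strand held 317, 358, 345, 730, 618, 534 and 395. Reads of minus-strand tRNAs outnumbered those of plus-strand ones at Days 2 and 13, and the reverse held in the Day 15, iPSC and ESC libraries. At Days 8 and 10 the sums lay close, at 722 minus-strand against 792 plus-strand reads and 335 against 377. These sums are of 8 and 10 genes and were not corrected for gene number. The strand is that of the annotated gene, since reads carried none. The other 12 tRNAs held between 10 reads (mt-Ts1, in the copied run) and 686 reads (mt-Tn) over all 7 libraries, and all 12 were highest in ESCs in normalized counts.

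For comparison of libraries, the call rule asked for a log2 difference of 1 or more (2-fold), where the higher library of the pair reached 6 on that scale (64 normalized counts). The share of all genes passing the same rule is given as the background. From Day 2 to Day 8, the 7 followed mRNAs passed the filter and all 7 were higher at Day 8, where 26.3% of all genes were higher and 31.8% lower. With scaling to total reads in place of the size factors, the background was 34.2% higher and 25.6% lower. The differences ran from 1.11 for mt-Nd2 to 1.85 for mt-Co1, with a median of 1.36 against -0.11 over all genes. The rRNAs were within 2-fold, mt-Rnr2 just short of the threshold at 0.997 and mt-Rnr1 at 0.50. Of 7 tRNAs that passed, 3 were higher, 2 of them passing through the Day 8 library alone. Time and the SSEA1 sort cannot be told apart in this comparison.

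Between Day 8 and Day 10, 5 of the 7 mRNAs were lower at Day 10 and none higher, against a background of 18.8% lower and 27.7% higher. The differences ran from -1.80 for mt-Nd6 to -0.71 for mt-Co1, which with mt-Nd4 (-0.96) stayed within 2-fold. With trimmed-mean factors in place of the deposited ones, 3 of the 7 were lower, against a background of 16.8% lower and 29.7% higher. Of the rRNAs mt-Rnr2 was lower, by -1.30, and of 7 tRNAs that passed 5 were lower, all 5 passing through the Day 8 library alone. The Day 8 library decides both this step and the one before: Day 10 set against Day 2 directly had 1 mRNA higher and none lower. The share of all genes was not computed for that pair, so this count has no background.

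Between Day 10 and Day 13 none of the 7 mRNAs and neither rRNA differed by 2-fold, against a background of 15.7% of genes higher and 9.51% lower. Over the same step 5 of 6 tRNAs that passed were higher at Day 13, and 4 of the 6 passed through the Day 13 library alone. From Day 13 to Day 15 all 7 mRNAs were higher, against a background of 14.6% higher and 13.1% lower. The differences ran from 1.36 for mt-Co1 to 1.98 for mt-Nd1, with a median of 1.61 against 0.02 over all genes. Over that step mt-Rnr1 was higher by 1.07 and mt-Rnr2 by 0.96, and of 7 tRNAs 2 were higher and 2, mt-Tt and mt-Tp, lower, of which mt-Tt passed through the Day 13 library alone.

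Between Day 15 and iPSCs 3 of the 7 mRNAs were lower in iPSCs and none higher, against a background of 22.1% lower and 7.83% higher. The lower ones were mt-Nd5 (-1.32), mt-Co1 (-1.31) and mt-Nd4 (-1.06), while mt-Nd1 had the smallest difference at -0.52. Neither rRNA passed the threshold, and of 7 tRNAs 5 were lower, of which mt-Tn, mt-Tc and mt-Tp passed through the Day 15 library alone. The iPSC library had the fewest reads of the 7, which widens the intervals of its tRNAs.

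Set directly against Day 2, iPSCs were higher for 1 of the 7 mRNAs, mt-Nd1 (1.56), and lower for none, against a background of 28.7% higher and 29.8% lower. With scaling to total reads the background was 35.3% higher and 24.4% lower, and 4 mRNAs were counted as higher. With Day 10 in place of Day 2, 3 were, and the share of all genes was not computed for that pair. The mt-Nd2 value lay just inside the threshold at 0.99, and the others between 0.27 (mt-Nd5) and 0.82. The rRNAs stood at -0.25 and -0.11. A single size of change for the whole genome thus does not describe this pair of libraries.

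The ESC library was above the iPSC library for all 10 mRNAs that passed, against a background of 14.5% higher and 13.7% lower, or 11.6% and 16.8% with scaling to total reads. Of the 10, mt-Co2, mt-Atp6 and mt-Co3 passed through the ESC library alone, so their differences could only be in that direction. For the 7 followed mRNAs the differences ran from 2.72 for mt-Nd2 to 3.68 for mt-Co1, with a median of 3.32 against 0.02 over all genes. Both rRNAs were higher, mt-Rnr1 by 2.77 and mt-Rnr2 by 2.70, as were the 12 tRNAs that passed, 8 of them through ESCs alone.

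Against Day 2, ESCs were higher for the same number of members, 10 mRNAs, 2 rRNAs and 12 tRNAs, against a background of 29.1% higher and 29.8% lower. Of these, 3 mRNAs and 7 tRNAs passed through the ESC library alone. The median of the 7 mRNAs was 4.05, and the rRNAs stood at 2.52 and 2.59. The mRNA sum was 18.3-fold (18.2 to 18.4) that of Day 2 and the rRNA sum 5.99-fold (5.97 to 6.01). With Day 10 in place of Day 2 the same numbers of members were higher, against a background of 18.8% higher and 23.2% lower. Of these, mt-Co2, mt-Atp6, mt-Co3 and all the tRNAs but mt-Tl1 and mt-Tp passed through the ESC library alone. The median of the 7 mRNAs was then 3.83, the mRNA sum 12.2-fold and the rRNA sum 7.37-fold. The comparisons of ESCs with iPSCs, Day 2 and Day 10 share the ESC library, so they are not separate evidence.

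The nuclear genes for subunits of the same complexes differed little between the libraries. Of 85 listed subunits of complexes I to V, 82 passed the filter in the pair of ESCs and iPSCs and 80 were within 2-fold, against 71.7% of all genes, with the sum of normalized counts in ESCs at 1.04 times that in iPSCs. Those outside were both tissue-restricted complex IV subunits, Cox6b2 (1.02) and Cox6a2 (-1.56). Between Day 2 and Day 8, 76 of 81 were within 2-fold, against 41.9% of all genes, and the sums stood at 1.02. Outside were the complex I subunits Ndufs1 (1.14) and Ndufc1 (-1.07), the ATP synthase subunit Atp5g1 (-1.47), Cox6b2 (2.07) and Cox7a1, which had 0 normalized counts at Day 2 and 98.7 at Day 8. In the other 6 comparisons between 76 of 81 and 82 of 83 were within 2-fold. The share of all genes within 2-fold ran from 41.1% (ESCs and Day 2) to 74.8% (Days 10 and 13) in these.

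The ratio of mitochondrial to nuclear reads within a complex therefore followed the mitochondrial mRNAs. These ratios are of summed normalized counts, not per length, and are read only between libraries. For complex I the ratio was 0.737, 1.75, 0.970, 0.846 and 3.11 on Days 2, 8, 10, 13 and 15, 1.57 in iPSCs and 13.1 in ESCs. For complex III it was 1.09, 2.47, 1.40, 1.01, 3.60, 1.80 and 17.0. For complex IV, where the mitochondrial part rests on mt-Co1, it was 0.670, 2.49, 2.13, 1.11, 3.14, 1.06 and 12.6. In all 3 the ESC library was the highest and Day 15 came next. No ratio is given for complex V, whose mitochondrial genes lie in the copied run.

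**Figure D5:**
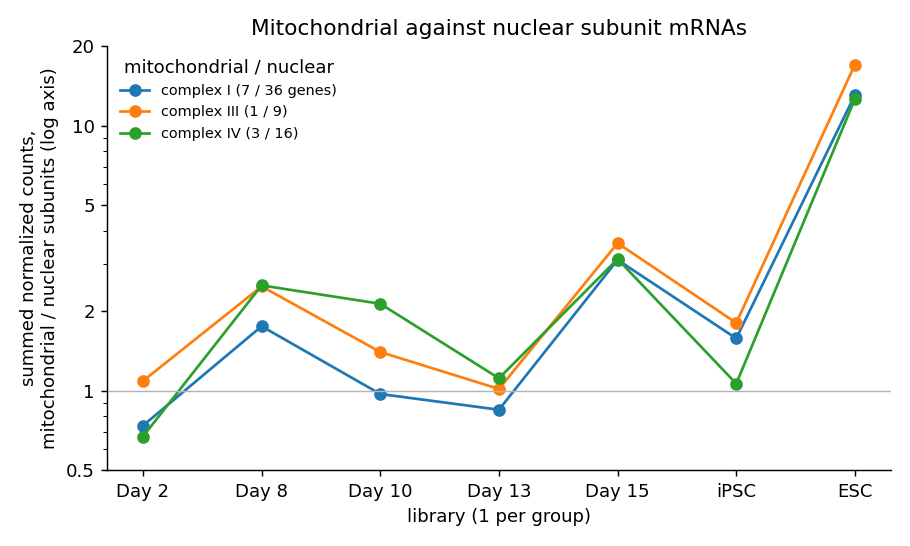
Summed normalized counts of the mitochondrial subunits divided by those of the nuclear subunits of complexes I, III and IV (vertical axis, log scale) in the 7 libraries (horizontal axis). The ESC library stands at 12.6 to 17.0 and the other 6 between 0.670 and 3.60.

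The nuclear genes that transcribe and copy the mitochondrial genome differed less between ESCs and iPSCs than its transcripts. Of 20 listed genes, 2 were higher and 1 lower in ESCs, against 14.5% and 13.7% of all genes: the termination factor family members Mterf2 (1.67) and Mterf1b (1.17), and the initiation factor Tfb2m (-1.15). Polrmt had 711, 1377, 2057, 1087 and 1457 normalized counts on Days 2, 8, 10, 13 and 15, 1394 in iPSCs and 2399 in ESCs. Tfam, which packages the genome and opens its promoters, had 1021, 1848, 1914, 2620, 2692, 4262 and 3819. Tfb2m had 570, 951, 434, 329, 281, 574 and 258. The ESC library was thus the highest of the 7 for Polrmt and the lowest for Tfb2m, and iPSCs were the highest for Tfam. The elongation factor Tefm ran from 590 at Day 2 to 2613 in ESCs.

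Between Day 2 and Day 8, 7 of the 20 were higher and none lower, against 26.3% and 31.8% of all genes. Among them were the rRNA methylase Tfb1m (2.17), Mterf1b (2.17), the ribosome assembly factor Mterf4 (1.43) and the replicative helicase Twnk (1.09). The DNA polymerase Polg was within 2-fold at -0.55. Against Day 2, 10 of the 20 were higher in ESCs and 1, Tfb2m, lower, where the background was 29.1% and 29.8%. Against Day 10 instead, ESCs were higher for 2 and lower for none, at a background of 18.8% and 23.2%.

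Of 37 listed genes for processing and decay of mitochondrial RNA, 1 was higher and 2 lower in ESCs than in iPSCs, against the same 14.5% and 13.7% of all genes. These were the rRNA methylase Mrm1 (1.50), Angel2 (-1.16) and the nuclease Lactb2 (-1.02). Lrpprc, which with Slirp binds and stabilises mitochondrial mRNAs, lay between 4328 and 6198 normalized counts in all 7 libraries, and Slirp between 850 and 1710. Between Day 2 and Day 8, 10 of the 37 were higher and 7 lower, against 26.3% and 31.8%. The gene listed as 1110008L16Rik, the catalytic subunit of mitochondrial RNase P, had 354 normalized counts at Day 2 and 2710 at Day 8. The rRNA methylase Nsun4 had 868 normalized counts at Day 2, 0 at Day 8 and 440 to 995 in the other 5 libraries. The Day 8 library held reads of the fewest genes, and whether this made the value of 0 was not tested.

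Among 14 translation factors, Guf1 (1.71) and the release factor family member Mtrf1 (1.23) were higher in ESCs than in iPSCs and none was lower. The background of this pair, 14.5% higher and 13.7% lower, holds for the next lists too. Of 15 regulators of mitochondrial biogenesis that passed in that pair, the nuclear receptor Esrra was higher (1.18) and the coactivator Ppargc1b lower (-1.12). The coactivator Ppargc1a had 284 normalized counts at Day 8 and 0 in the other 6 libraries. Ppargc1b went the other way, with 0 at Day 8 and 64.9 to 341 in the other 6. The Day 8 library held reads of the fewest genes, and its part in these values was not tested. The transcription factor Nrf1 had 4836 normalized counts in iPSCs and 4065 in ESCs, and Gabpa 4018 and 4596. Of 12 genes for mitophagy and mitochondrial mass, 1 was higher in ESCs than in iPSCs, the mitophagy receptor Bnip3 (1.16). Bnip3 had 363, 3688, 5585, 6921 and 4399 normalized counts on Days 2, 8, 10, 13 and 15, 546 in iPSCs and 1224 in ESCs, so it stood highest in the SSEA1-sorted intermediates. The outer membrane import receptor Tomm20, often used as a measure of mitochondrial mass, was at 8305 in iPSCs and 10698 in ESCs. Hspd1 of the same list went the other way, at 67067 in iPSCs and 49839 in ESCs. The median log2 difference of the 12 genes between ESCs and iPSCs was -0.07.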

How the data were processed

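RNA sequencing of 7 libraries, 1 per group, gave the deposited values. FastQC, the aligner STAR 2.5.3a and the counter featureCounts are named with the build mm10 (GRCm38.p5), per the submitters' processing notes. The values deposited by the authors are log2 of the read count of each gene divided by a size factor, plus 1. How the size factors were made, and how reads matching several places were counted, the sources used here do not say. On the linear scale 100% of the values were whole reads within 0.01 reads, from which read numbers were recovered.

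From these values, log2 differences between library pairs, read ratios with 95% intervals, RPKM from GENCODE M21 gene lengths, and shares were computed (Python 3.11.15, numpy 2.4.6, pandas 2.3.3, scipy 1.17.1). Nuclear copies were found with blastn 2.17.0 among annotated transcripts at 95% identity or more, and called near-identical at 99% or more. Trimmed-mean (TMM) factors were computed on the recovered reads. No test was run, since no group has replicates. Every mitochondrial gene may be named. Of each nuclear list, the genes named were drawn from the 3 largest differences each way between ESCs and iPSCs and between Days 8 and 2, and from the defining members. The members and lists were chosen with earlier results of these data known. The count and ratio steps were tested on simulated data. Alternatives covered the filter, the scaling and the pseudocount.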

Additional observations from a re-analysis of the deposited data

How the results depend on the processing

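Counts of mitochondrial mRNAs past 2-fold were within 1.5 times the reported count in 96 cases and outside it in 10. Counts of 0 under both settings were placed among the 96. With trimmed-mean factors, 3 mRNAs in place of 5 were lower at Day 10 than at Day 8. With no filter on low values, 2 in place of 0 were higher at Day 13 than at Day 10, 6 in place of 3 were lower in iPSCs than at Day 15, and 2 in place of 1 were higher in iPSCs than at Day 2, since the genes of the copied run then enter. With scaling to total reads, 4 were higher in iPSCs than at Day 2, also when mitochondrial and nuclear ribosomal reads were left out of the total. Replacing a library was chosen after seeing the data. For such pairs the share of all genes is given only for ESCs against Day 10. With Day 10 in place of Day 2, 3 were higher in iPSCs. With Day 10 in place of Day 8, 1 was higher than at Day 2. With Day 2 in place of Day 8, 1 in place of 0 was higher at Day 10 and 0 in place of 5 were lower, so the direction differed. The cause was not tested.

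Scaling to total reads moved the median of all genes by 0.46 between Days 2 and 8 and by 0.36 between Day 2 and iPSCs. The median of the 7 mRNAs ranged, over the settings that keep the filter, from 1.32 to 1.78 between Days 2 and 8, from 0.81 to 1.14 between Day 2 and iPSCs, and from 3.14 to 3.39 between iPSCs and ESCs. Shares moved with the denominator by more than their counting intervals. No paired analysis was possible because each group has 1 library. Depth limits the tRNAs and the copied genes, of which the iPSC library held 341 and 28 reads.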
